A study of Homo sapiens with 12 samples.

Results

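SR proteins and hnRNP proteins are the main families of RNA-binding proteins that set where exons begin and end. The genes described here were 14 SR protein genes (SRSF1 to SRSF12, TRA2A and TRA2B) and 24 hnRNP genes, taken by their symbols from a deposited table of 63241 genes. All 38 symbols were found, and 36 (13 SR and 23 hnRNP) held enough counts to be tested. SRSF12 and PTBP2 were too low and are described by their counts alone. The study over-expressed PEPD, which encodes peptidase D (prolidase), an enzyme that splits dipeptides ending in proline or hydroxyproline, and asked what changed among polyadenylated RNAs. The groups were T98G PEPD-OE, T98G NC, U251 PEPD-OE and U251 NC, with 3 libraries in each and 12 in all. T98G and U251 are established human glioblastoma cell lines. PEPD-OE stands for PEPD over-expression, and the labels do not expand NC or say how PEPD was introduced, so whether a group is 1 clone or a mixed population is not known. Nothing in the labels ties each replicate to its own culture, so the spread behind every p-value is that between these libraries and may be technical.

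SR proteins carry 1 or more RNA recognition motifs and a tail rich in serine and arginine. They bind enhancer sequences in exons, recruit the U1 and U2 particles to splice sites and mostly favour inclusion of the exon they bind. SRPK and CLK kinases phosphorylate the tail, which controls import into the nucleus and release from nuclear speckles. hnRNP proteins coat new transcripts and often act the other way, silencing exons, though several of them also activate exons and act in export, stability and translation. Some genes of these families hold an exon with an early stop codon, whose inclusion sends the transcript to nonsense-mediated decay. In some of them the gene's own protein promotes that inclusion. Counts per gene, as used here, do not separate such isoforms. In bulk samples, fewer cells with a transcript and less of it per cell cannot be told apart.

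Library totals were 464056 to 924204 counts, the lowest in T98G NC replicate 1, so the scarcer members rest on few counts. Levels are given as CPM, counts scaled to 1e+06 per library and by TMM, the trimmed mean of M values. PEPD was counted 118, 100 and 114 times in T98G PEPD-OE and 9, 2 and 9 times in T98G NC. It was counted 113, 140 and 175 times in U251 PEPD-OE and 11, 5 and 7 times in U251 NC. The log2 fold change was 4.04 (SE 0.25, edgeR adjusted p = 1.71e-32) in T98G and 4.16 (SE 0.23, edgeR adjusted p = 1.86e-35) in U251. The glioma marker OLIG2 was at 0 in all groups and S100B at 0 in both T98G groups, while the 7 markers summed to 1143 to 1334 CPM in T98G PEPD-OE and 1530 to 1624 CPM in T98G NC. They summed to 3172 to 3712 CPM in U251 PEPD-OE and 4617 to 4689 CPM in U251 NC. The sum was thus lower with PEPD-OE in both lines, with no overlap, but not every marker was. GFAP averaged 65.7 CPM in T98G PEPD-OE and 48.0 CPM in T98G NC, with overlapping libraries. SOX2 held 1 count in each T98G group, and NES 5 in T98G PEPD-OE and 14 in T98G NC. In T98G the sum was mostly VIM, averaging 474 CPM in PEPD-OE and 723 CPM in NC, and CD44, averaging 723 CPM in PEPD-OE and 804 CPM in NC. The 4 neuron markers, with STMN2 at 0, summed to 14.8 to 17.1 CPM in T98G PEPD-OE and 6.497 to 11.3 CPM in T98G NC, and to 30.1 to 32.2 CPM in U251 PEPD-OE and 11.6 to 24.3 CPM in U251 NC, higher with PEPD-OE in both lines. These neuron sums rest on few counts, since 3 counts equal 3.20 to 6.33 CPM. The part of the glioma and neuron marker shifts in the results was not tested. Markers of epithelium summed to at most 3.01 CPM and of endothelium to at most 18.1 CPM. Those of macrophages and microglia differed widely between libraries of a T98G group, from 4.27 to 60.8 CPM in T98G PEPD-OE and from 0 to 59.8 CPM in T98G NC. In U251 they summed to at most 10.3 CPM. The libraries were made with a strand-marking kit, but the strand setting of the counting is not given in the sources used here. Some very abundant transcripts had most counts under the gene on the other strand. BEST1 held 486557 counts and its overlapping partner FTH1 10068. TALAM1 held 219603 counts and MALAT1, on the other strand, 4272. Which strand was counted was not tested, so levels and changes given here are those of the counts under each gene's name. Under counting on the wrong strand, a member with no partner would hold residual reads alone. A member with a partner would hold the partner's reads from the shared stretch, and its own reads there would count under the partner. Members with an exon that overlaps an exon on the other strand are therefore named as such and set beside that partner.

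In T98G cells, PEPD over-expression went with lower counts for most members of both families. Of 13 tested SR genes, 8 fell (SRSF1, SRSF2, SRSF3, SRSF6, SRSF7, SRSF8, SRSF10 and TRA2B) and 2 rose (SRSF9 and SRSF11). Of 23 tested hnRNP genes, 12 fell (HNRNPA1, HNRNPA2B1, HNRNPAB, HNRNPD, HNRNPDL, HNRNPH1, HNRNPH3, HNRNPK, HNRNPL, HNRNPM, HNRNPU and SYNCRIP) and 1 rose (HNRNPA3). A gene was called when its edgeR p, adjusted over all 8773 genes tested, was under 0.05, and by that rule 14.7% of all genes fell and 17.7% rose (32.3% in either direction). The median log2 fold change was -0.72 for the SR genes and -0.36 for the hnRNP genes, beside 0.00 for all genes tested. All PEPD-OE libraries lay below all NC libraries for 21 of the 36 members and above them for 4, beside 20.9% and 22.6% of all genes tested (43.5% in either direction).

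The sum over each family depended on the scaling. As a share of all counts, unscaled, the SR genes took 0.197%, 0.207% and 0.219% in T98G PEPD-OE and 0.241%, 0.226% and 0.233% in T98G NC, and the hnRNP genes 0.757%, 0.780% and 0.776% in T98G PEPD-OE and 0.929%, 0.936% and 0.924% in T98G NC. Both shares were lower in PEPD-OE with no overlap. TMM scaling, with factors of 0.908 to 0.931 in T98G PEPD-OE and 1.05 to 1.08 in T98G NC, narrowed these gaps. After it, the SR genes summed to 2238, 2333 and 2423 CPM in T98G PEPD-OE and 2361, 2174 and 2232 CPM in T98G NC, where the groups overlapped. The hnRNP genes summed to 8592, 8772 and 8590.5 CPM in T98G PEPD-OE and 9097, 9017 and 8846 CPM in T98G NC, where every PEPD-OE library lay below every NC library. SRSF9, SRSF11 and HNRNPA3, the members that rose, held a large part of these counts. The mitochondrial share of counts was 9.73%, 7.95% and 8.63% in T98G PEPD-OE, against 6.14%, 5.94% and 5.07% in T98G NC. With the mitochondrial genes, TALAM1, MALAT1 and BEST1 left out of the fit, 3 members were still called higher and 20 lower.

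**Figure D1:**
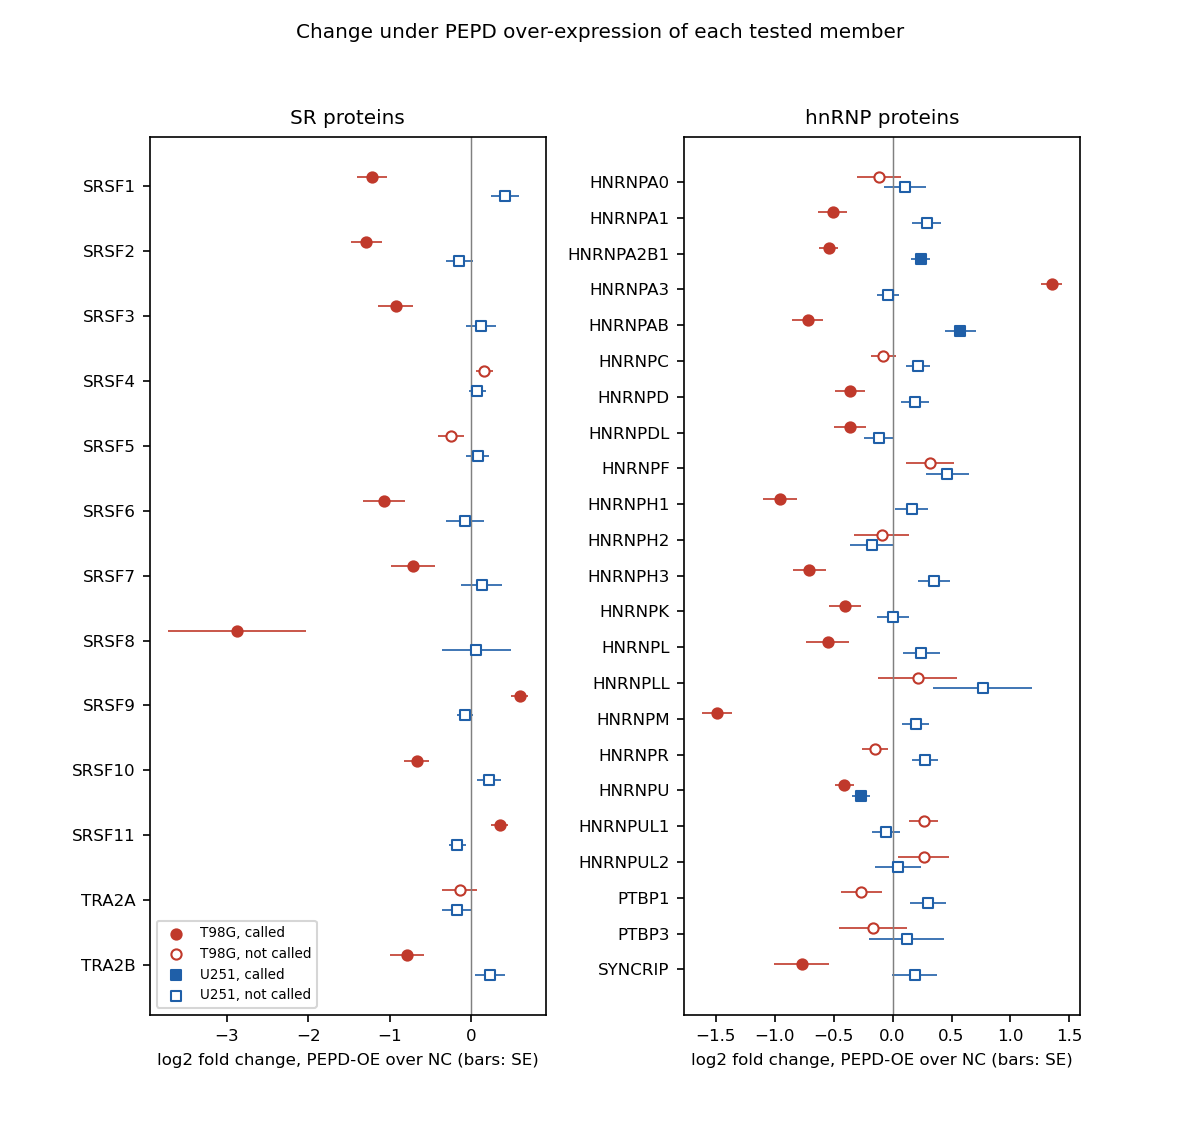
Log2 fold change of PEPD-OE over NC (x axis, bars SE) for each of the 36 tested members, SR proteins left and hnRNP proteins right, with T98G as red circles and U251 as blue squares, filled where called. In T98G most points lie left of 0, with SRSF9 (0.59), SRSF11 (0.35) and HNRNPA3 (1.35) filled on the right, while the U251 points lie between -0.27 (HNRNPU) and 0.76 (HNRNPLL, not called) and 3 are filled.

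Among the SR genes that fell in T98G, SRSF2 and SRSF1 had the smallest p-values. SRSF2, a regulator found in nuclear speckles (ENSG00000161547, chr17:76734115-76737374, minus strand, GRCh38), had 47.3, 60.8 and 42.7 CPM in T98G PEPD-OE and 106, 144 and 113 CPM in T98G NC. The groups did not overlap, and the log2 fold change was -1.29 (SE 0.19, edgeR adjusted p = 2.01e-09). SRSF1 (ENSG00000136450, chr17:58003360-58007346, minus strand), the founding member of the family, which also acts in translation and decay, had 57.7, 48.3 and 57.0 CPM in T98G PEPD-OE and 175, 101 and 118 CPM in T98G NC. Every PEPD-OE library lay below every NC library, of which replicate 1 was the highest, with a log2 fold change of -1.22 with an SE of 0.19 (edgeR adjusted p = 1.14e-08). Both genes have an exon overlapped by a gene on the other strand, described further on.

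SRSF3, the smallest SR protein, which also helps to export mRNA, had 35.5, 37.4 and 52.7 CPM in T98G PEPD-OE and 71.7, 97.5 and 69.0 CPM in T98G NC. SRSF6 had 31.1, 21.8 and 25.6 CPM in T98G PEPD-OE and 54.9, 44.2 and 66.5 CPM in T98G NC. In neither gene did the groups overlap, and the log2 fold changes were -0.93 (SE 0.21, edgeR adjusted p = 0.000187) for SRSF3 and -1.07 (SE 0.26, edgeR adjusted p = 0.00044) for SRSF6. TRA2B, a homolog of the fly splicing factor transformer-2, had 42.9, 43.6 and 42.7 CPM in T98G PEPD-OE and 76.0, 63.7 and 84.0 CPM in T98G NC. SRSF10, a splicing repressor once dephosphorylated, had 85.8, 106 and 95.4 CPM in T98G PEPD-OE and 141, 152 and 161 CPM in T98G NC. Again the PEPD-OE libraries were all lower, by a log2 fold change of -0.79 with an SE of 0.21 (edgeR adjusted p = 0.00157) for TRA2B and -0.67 (SE 0.16, edgeR adjusted p = 0.000241) for SRSF10. None of these 4 genes has an exon overlap with the other strand.

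The falls of SRSF7 and SRSF8 rested on few counts. SRSF7, an SR protein with a zinc knuckle that links splicing to export, had 22.2, 28.0 and 31.3 CPM in T98G PEPD-OE and 54.9, 35.1 and 47.7 CPM in T98G NC, with no overlap. Its log2 fold change was -0.72 (SE 0.27, edgeR adjusted p = 0.0275). The call was lost without T98G PEPD-OE replicate 1 (edgeR adjusted p = 0.138) or 2 (0.0547), without T98G NC replicate 1 (0.105) or 3 (0.0996), and with DESeq2 (0.0973). SRSF8, a copy related to SRSF2, was counted 1, 1 and 0 times in T98G PEPD-OE and 3, 10 and 4 times in T98G NC, a ratio of scaled counts 8.41-fold lower in PEPD-OE (exact 95% counting interval 1.997 to 75.1). Its edgeR adjusted p was 0.00443, and 0.0906 without T98G NC replicate 2, the library with 10 of the 17 counts. SRSF12, an SR-like repressor, had 3, 2 and 2 counts in T98G PEPD-OE and 0 in every T98G NC library. It was 2.36-fold higher when the NC group is set to a floor of 3 counts in all, which is no lower bound. With the counts as they were, the exact 95% counting interval of the ratio has a lower limit of 1.46. It was the scarcest member, with 20 counts over the 12 libraries, and was not tested.

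The SR genes that rose in T98G were SRSF9 and SRSF11. SRSF9 (ENSG00000111786, chr12:120461668-120469793, minus strand), an SR protein with a very short serine and arginine tail, had 760.3, 737 and 782 CPM in T98G PEPD-OE and 504, 492 and 517 CPM in T98G NC. The groups were far apart relative to their spread, at a log2 fold change of 0.59 with an SE of 0.10 (edgeR adjusted p = 2.94e-07). SRSF11, which binds the U2AF splice site factor, had 575, 579.6 and 609.7 CPM in T98G PEPD-OE and 468, 455 and 467 CPM in T98G NC. Its groups did not overlap, and it rose by a log2 fold change of 0.35 with an SE of 0.10 (edgeR adjusted p = 0.00525). SRSF9 has exons overlapped by the other strand and SRSF11 has none.

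The remaining SR genes tested did not pass. SRSF5 had 105, 112 and 111 CPM in T98G PEPD-OE and 129, 129.9 and 132 CPM in T98G NC, groups that did not overlap, but its log2 fold change of -0.25 with an SE of 0.16 (edgeR adjusted p = 0.225) missed the threshold. SRSF4, a large SR protein with a long tail, averaged 478 ± 54.1 CPM in T98G PEPD-OE and 432 ± 62.8 CPM in T98G NC (SD, n = 3 each). TRA2A, the other transformer-2 homolog, averaged 52.3 ± 11.8 CPM in T98G PEPD-OE and 58.9 ± 9.41 CPM in T98G NC (SD, n = 3 each). In both the groups overlapped, and the edgeR adjusted p was 0.268 for SRSF4 and 0.651 for TRA2A.

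**Figure D2:**
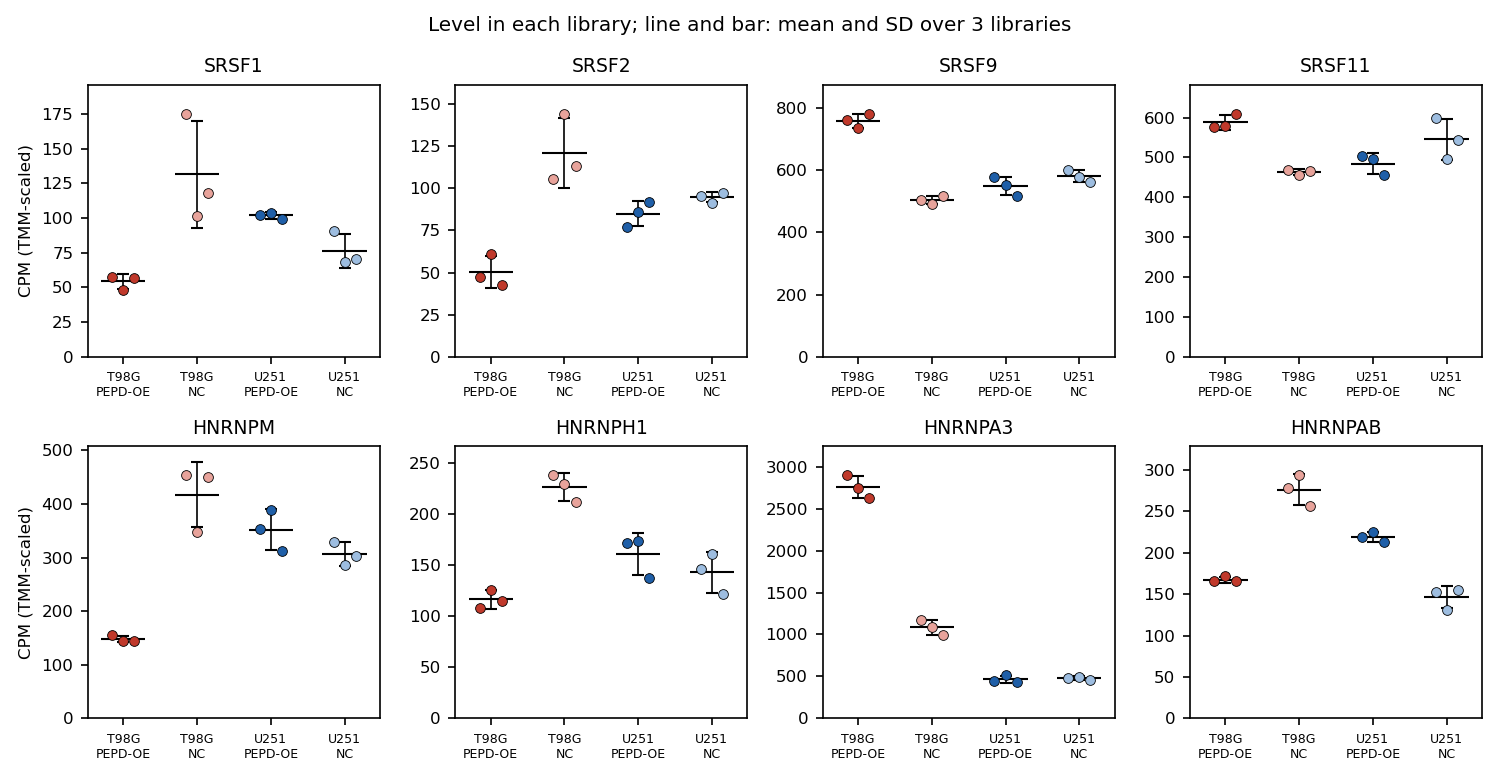
Level in CPM (y axis, from 0) of 4 SR genes and 4 hnRNP genes in each of the 12 libraries, in the order T98G PEPD-OE, T98G NC, U251 PEPD-OE and U251 NC, with the mean as a line and the SD as a bar. SRSF1, SRSF2, HNRNPM and HNRNPH1 have their lowest mean in T98G PEPD-OE, SRSF9, SRSF11 and HNRNPA3 are higher there than in T98G NC, and HNRNPAB is low in T98G PEPD-OE and high in U251 PEPD-OE against its NC libraries.

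Of the hnRNP genes, HNRNPM changed with the smallest p among those that fell in T98G. HNRNPM (ENSG00000099783, chr19:8444767-8489114, plus strand), which binds sequences rich in G and U and silences exons of CD44 among others, had 155, 145 and 144 CPM in T98G PEPD-OE and 454, 347 and 450.3 CPM in T98G NC. The highest PEPD-OE library was far below the lowest NC library, and the log2 fold change was -1.49 (SE 0.13, edgeR adjusted p = 3.08e-21). HNRNPH1, one of the proteins that bind runs of G, had 108, 126 and 115 CPM in T98G PEPD-OE and 238, 230.0 and 212 CPM in T98G NC. It fell with no overlap, by a log2 fold change of -0.96 with an SE of 0.14 (edgeR adjusted p = 9.54e-09). Its relative HNRNPH3 had 138, 159 and 142 CPM in T98G PEPD-OE and 272, 250.8 and 201 CPM in T98G NC, a log2 fold change of -0.71 with an SE of 0.14 (edgeR adjusted p = 1.02e-05). The other G-run binders did not pass: HNRNPH2 averaged 45.8 ± 14.2 CPM in T98G PEPD-OE and 49.4 ± 9.14 CPM in T98G NC, and HNRNPF 68.5 ± 15.04 CPM in T98G PEPD-OE and 53.9 ± 8.32 CPM in T98G NC (SD, n = 3 each). Their groups overlapped, with an edgeR adjusted p of 0.799 for HNRNPH2 and 0.25 for HNRNPF.

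The hnRNPs named by A or AB split. HNRNPA1, which silences exons through UAG-containing sites, had 216, 229 and 284 CPM in T98G PEPD-OE and 346, 364 and 327 CPM in T98G NC, a log2 fold change of -0.51 with an SE of 0.12 (edgeR adjusted p = 0.00033). HNRNPA2B1, which also directs RNA transport, had 1188, 1340.0 and 1217 CPM in T98G PEPD-OE and 1819, 1806 and 1823 CPM in T98G NC, a log2 fold change of -0.54 with an SE of 0.08 (edgeR adjusted p = 1.31e-08). HNRNPAB had 166, 171 and 165 CPM in T98G PEPD-OE and 279, 294 and 256 CPM in T98G NC, a log2 fold change of -0.72 with an SE of 0.13 (edgeR adjusted p = 1.68e-06). In these 3 genes every PEPD-OE library was below every NC library. HNRNPA3 (ENSG00000170144, chr2:177212563-177223958, plus strand), a close relative of HNRNPA1 and HNRNPA2B1, went the other way, with 2901, 2742 and 2631 CPM in T98G PEPD-OE and 1171, 1089 and 994 CPM in T98G NC. It rose 2.55-fold, a log2 fold change of 1.35 with an SE of 0.09 (edgeR adjusted p = 7.19e-31), the smallest p of any member. HNRNPA0, encoded by a gene without introns, averaged 75.5 ± 16.5 CPM in T98G PEPD-OE and 81.4 ± 14.6 CPM in T98G NC (SD, n = 3 each), with overlapping groups and an edgeR adjusted p of 0.68.

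Other hnRNPs fell as well. HNRNPU, a nuclear scaffold protein that binds RNA and chromatin, had 1550.1, 1577 and 1543 CPM in T98G PEPD-OE and 2066, 2037 and 2092 CPM in T98G NC, a log2 fold change of -0.41 with an SE of 0.08 (edgeR adjusted p = 5.28e-06). The spread within each group was small beside the gap. SYNCRIP, a relative of HNRNPR that acts in mRNA stability and translation, had 39.9, 37.4 and 28.5 CPM in T98G PEPD-OE and 54.9, 55.9 and 67.7 CPM in T98G NC, a log2 fold change of -0.77 with an SE of 0.24 (edgeR adjusted p = 0.00601). HNRNPL, which binds CA repeats, had 54.7, 73.2 and 75.5 CPM in T98G PEPD-OE and 125, 101 and 80.3 CPM in T98G NC, a log2 fold change of -0.55 with an SE of 0.18 (edgeR adjusted p = 0.0123). In these genes the groups did not overlap, though NC replicate 3 and PEPD-OE replicate 3 of HNRNPL came close. SYNCRIP lost its call without T98G PEPD-OE replicate 3 (edgeR adjusted p = 0.059) or T98G NC replicate 3 (0.0623). HNRNPL lost it without T98G PEPD-OE replicate 1 (edgeR adjusted p = 0.125) or T98G NC replicate 1 (0.109).

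HNRNPK, which binds runs of C through KH domains, had 149, 181 and 151 CPM in T98G PEPD-OE and 200.5, 210.5 and 221 CPM in T98G NC, a log2 fold change of -0.40 with an SE of 0.14 (edgeR adjusted p = 0.0155). HNRNPD, known for marking mRNAs with AU-rich elements for decay, had 197, 219.7 and 232 CPM in T98G PEPD-OE and 283, 301 and 249.6 CPM in T98G NC, a log2 fold change of -0.36 with an SE of 0.13 (edgeR adjusted p = 0.0184). Its relative HNRNPDL had 157, 151 and 178 CPM in T98G PEPD-OE and 224, 200.1 and 204 CPM in T98G NC, a log2 fold change of -0.36 with an SE of 0.14 (edgeR adjusted p = 0.0335). The groups of all 3 genes stood apart, but each call hung on single libraries. HNRNPK was not called without T98G PEPD-OE replicate 1 or 3 or T98G NC replicate 3 (edgeR adjusted p = 0.0722, 0.0686 and 0.0683 in that order). HNRNPD was not called without T98G PEPD-OE replicate 1 or T98G NC replicate 2 (edgeR adjusted p = 0.12 and 0.126). HNRNPDL was not called without T98G PEPD-OE replicate 1 or 2 or T98G NC replicate 1 or 3, with edgeR adjusted p-values of 0.0643 to 0.134. With DESeq2 neither HNRNPD (adjusted p = 0.0506) nor HNRNPDL (0.102) was called.

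In all, 10 hnRNP genes did not pass in T98G, HNRNPA0, HNRNPF and HNRNPH2 among them. HNRNPC, which binds runs of U and sorts transcripts by length, averaged 477 ± 21.4 CPM in T98G PEPD-OE and 502 ± 38.2 CPM in T98G NC, and HNRNPR 451 ± 18.8 CPM in T98G PEPD-OE and 498 ± 56.5 CPM in T98G NC (SD, n = 3 each). HNRNPUL1, a relative of HNRNPU, had 283, 299 and 333 CPM in T98G PEPD-OE and 276, 242 and 248 CPM in T98G NC, all PEPD-OE libraries higher, but its log2 fold change of 0.26 with an SE of 0.12 (edgeR adjusted p = 0.0863) missed the threshold. HNRNPUL2 averaged 60.5 ± 4.65 CPM in T98G PEPD-OE and 51.8 ± 10.2 CPM in T98G NC (SD, n = 3 each). In all but HNRNPUL1 the groups overlapped. The polypyrimidine tract proteins showed no called change in T98G. PTBP1, which represses neuronal exons outside neurons, averaged 86.9 ± 12.4 CPM in T98G PEPD-OE and 104 ± 6.69 CPM in T98G NC (SD, n = 3 each, edgeR adjusted p = 0.252). PTBP3 averaged 28.6 ± 4.88 CPM in T98G PEPD-OE and 31.7 ± 5.32 CPM in T98G NC (SD, n = 3 each, edgeR adjusted p = 0.702). PTBP2, the neuronal paralog, held 8 counts in T98G PEPD-OE and 16 in T98G NC over 3 libraries each, a ratio of scaled counts 1.98-fold lower in PEPD-OE with an exact 95% counting interval of 0.80 to 5.34. HNRNPLL, known for its part in the splicing of lymphocytes, had 48 counts in T98G PEPD-OE and 42 in T98G NC, with an edgeR adjusted p of 0.678.

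Promoters are shown for the SR and the hnRNP gene with the smallest p in each direction in T98G for which a sequence was at hand. Each is the first window that RefSeq lists for the gene on GRCh38.p14, from 250 bases before the annotated start to 50 after it, 5′ to 3′ on the gene's strand. Capitals mark matches, on either strand, to any of 7 motifs: the CCAAT box (CCAAT), the GC box (GGGCGG), the E-box (CACGTG), the TATA box (TATAAA), an ETS site (CCGGAAG), the NRF1 site, and the core of the antioxidant response element (TGACNNNGC). SRSF1 (fell, chr17:58007197-58007496, minus strand) has an antioxidant response core from base 101 and an NRF1 site from base 118. SRSF9 (rose, chr12:120469699-120469998, minus strand) has an NRF1 site from base 190. HNRNPM (fell, chr19:8444725-8445024, plus strand) has NRF1 sites from bases 116 and 218 and an E-box from base 209. HNRNPA3 (rose, chr2:177212544-177212843, plus strand) has 4 GC boxes, a CCAAT box and an E-box.
SRSF1: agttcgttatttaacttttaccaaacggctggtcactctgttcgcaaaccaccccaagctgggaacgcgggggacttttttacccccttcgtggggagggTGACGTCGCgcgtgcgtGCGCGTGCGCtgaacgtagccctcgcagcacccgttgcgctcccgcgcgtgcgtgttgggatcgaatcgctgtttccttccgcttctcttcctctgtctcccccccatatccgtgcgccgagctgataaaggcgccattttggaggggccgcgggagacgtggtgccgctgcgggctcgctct
SRSF9: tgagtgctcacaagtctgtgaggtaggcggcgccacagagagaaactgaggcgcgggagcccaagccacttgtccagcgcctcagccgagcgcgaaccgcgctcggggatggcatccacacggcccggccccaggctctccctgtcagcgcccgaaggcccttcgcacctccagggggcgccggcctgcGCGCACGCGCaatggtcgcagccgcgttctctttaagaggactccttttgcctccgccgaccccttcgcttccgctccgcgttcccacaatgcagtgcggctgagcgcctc
HNRNPM: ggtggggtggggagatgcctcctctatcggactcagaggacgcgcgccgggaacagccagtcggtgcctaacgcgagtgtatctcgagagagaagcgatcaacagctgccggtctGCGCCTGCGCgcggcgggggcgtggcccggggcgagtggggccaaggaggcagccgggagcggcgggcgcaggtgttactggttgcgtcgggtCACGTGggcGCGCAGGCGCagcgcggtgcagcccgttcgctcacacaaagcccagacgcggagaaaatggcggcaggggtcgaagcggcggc
HNRNPA3: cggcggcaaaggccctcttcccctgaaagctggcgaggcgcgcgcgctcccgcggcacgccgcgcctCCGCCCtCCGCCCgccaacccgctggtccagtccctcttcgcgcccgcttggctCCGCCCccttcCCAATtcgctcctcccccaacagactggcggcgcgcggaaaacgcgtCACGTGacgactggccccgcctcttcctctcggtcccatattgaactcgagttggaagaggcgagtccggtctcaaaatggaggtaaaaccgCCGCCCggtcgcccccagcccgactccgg

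Such windows were found for 35 of the 38 genes, all but SRSF2, TRA2A and HNRNPA1. The GC box was in 71.4% of the 35 windows and in 45% of all 35116 listed promoters, and the E-box in 22.9% of the 35 and 7.26% of all. The NRF1 site was in 11.4% and 5.78%, the CCAAT box in 45.7% and 34.6%, and the antioxidant response core in 17.1% and 13.3%. The TATA box was in 14.3% and 11.5%, and the ETS site in 14.3% and 10.3%. Among the 18 members with a window that fell in T98G, 11 had a GC box and 5 an E-box. Among the 12 with a window that were tested and not called, 10 had a GC box and 2 an E-box. Among the 3 that rose, 2 had a GC box and 1 an E-box. NRF1 sites were in 3 of the 18 that fell (SRSF1 and HNRNPM among them), in 1 of the 3 that rose (SRSF9) and in 0 of the 12 not called. A match describes these letters in this window and shows no binding.

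In U251 cells, few members changed. None of the 13 SR genes was called by edgeR or by DESeq2, and 1 of them, SRSF1, had an unadjusted p under 0.05. Of 23 hnRNP genes, HNRNPAB and HNRNPA2B1 rose and HNRNPU fell, beside 4.13% of all genes that rose and 4.42% that fell (8.55% in either direction). With RLE or upper-quartile scaling, and with DESeq2, 1 hnRNP gene rose and 1 fell. The median log2 fold change was 0.07 for the SR genes, 0.19 for the hnRNP genes and 0.00 for all genes tested. The U251 PEPD-OE libraries lay above all U251 NC libraries for 8 members and below them for 1, beside 11.4% and 11% of all genes tested (22.4% in either direction). The SR genes summed to 2467, 2513 and 2355 CPM in U251 PEPD-OE and 2657, 2302 and 2426 CPM in U251 NC. The hnRNP genes summed to 9499.96, 9115 and 8713 CPM in U251 PEPD-OE and 9001, 8855 and 8947 CPM in U251 NC, and both sums overlapped between the groups. Unscaled, the hnRNP share of counts was 0.923%, 0.938% and 0.883% in U251 PEPD-OE and 0.855%, 0.863% and 0.831% in U251 NC, which did not overlap.

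HNRNPAB had 218, 224 and 212 CPM in U251 PEPD-OE and 153, 131 and 155 CPM in U251 NC. The groups did not overlap and it rose 1.49-fold, a log2 fold change of 0.58 with an SE of 0.13 (edgeR adjusted p = 0.000815). HNRNPA2B1 had 2131, 1892 and 1898 CPM in U251 PEPD-OE and 1769.7, 1603 and 1645 CPM in U251 NC, a log2 fold change of 0.24 with an SE of 0.08 (edgeR adjusted p = 0.0464). This call sat at the threshold: leaving out any 1 library other than U251 PEPD-OE replicate 3 raised its edgeR adjusted p to 0.0539 or more, at most 0.194. HNRNPU, at 3120.4, 2782 and 2623 CPM in U251 PEPD-OE and 3290.1, 3425 and 3562 CPM in U251 NC, fell with no overlap, by a log2 fold change of -0.27 with an SE of 0.08 (edgeR adjusted p = 0.0111). Without U251 PEPD-OE replicate 2, U251 PEPD-OE replicate 3 or U251 NC replicate 3, its edgeR adjusted p was 0.0583, 0.0835 and 0.0915 in that order. All 3 genes have exons overlapped by the other strand, and a fit of the genes without such overlap called no member in U251, although 4 of the 24 members without overlap had an unadjusted p under 0.05 in the fit of all genes.

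SRSF1, HNRNPM and HNRNPA3, all called in T98G, were not called in U251. SRSF1 had 102, 104 and 99.3 CPM in U251 PEPD-OE and 90.3, 68.3 and 70.4 CPM in U251 NC, all PEPD-OE libraries higher, at a log2 fold change of 0.41 with an SE of 0.17 (edgeR adjusted p = 0.123) that was not called. HNRNPM had 354, 389 and 313 CPM in U251 PEPD-OE and 329.9, 286 and 304 CPM in U251 NC, at a log2 fold change of 0.20 with an SE of 0.11 (edgeR adjusted p = 0.336). HNRNPA3 had 444.5, 516 and 437 CPM in U251 PEPD-OE and 484, 497 and 452 CPM in U251 NC, at a log2 fold change of -0.04 with an SE of 0.09 (edgeR adjusted p = 0.882). In HNRNPM and HNRNPA3 the groups overlapped. SRSF12, at 0 in every T98G NC library, had 0, 2 and 0 counts in U251 PEPD-OE and 3, 3 and 5 in U251 NC. That is a ratio 5.62-fold lower in PEPD-OE (exact 95% counting interval 1.23 to 52.1). PTBP2 had 25 counts in U251 PEPD-OE and 38 in U251 NC, a ratio of scaled counts 1.55-fold lower in PEPD-OE (exact 95% counting interval 0.91 to 2.68).

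The difference between the lines was tested as the T98G change minus the U251 change. It was called for 20 of the 36 members, beside 27.7% of all genes tested. It was negative, so that the change in T98G was the lower one, for 7 of 13 SR genes and 10 of 23 hnRNP genes, beside 13.6% of all genes. It was positive for SRSF9, SRSF11 and HNRNPA3, beside 14.1% of all genes. The difference was -1.68 (SE 0.17, edgeR adjusted p = 4.21e-16) for HNRNPM, -1.63 (SE 0.25, edgeR adjusted p = 2.8e-08) for SRSF1 and -1.29 (SE 0.18, edgeR adjusted p = 1.89e-09) for HNRNPAB, all on the log2 scale. It was 1.39 (SE 0.13, edgeR adjusted p = 1.11e-18) for HNRNPA3. HNRNPAB and HNRNPA2B1 were the members called in opposite directions in the lines, and their difference was called too, at -0.78 (SE 0.12, edgeR adjusted p = 8.21e-09) for HNRNPA2B1. HNRNPU, lower in both lines, did not differ detectably between them (-0.14, SE 0.11, edgeR adjusted p = 0.375). SRSF7, HNRNPK and HNRNPDL fell in T98G, but the difference from U251 was not called for any of them, with an edgeR adjusted p of 0.0747, 0.104 and 0.349 in that order. HNRNPR was called for the difference (-0.43, SE 0.15, edgeR adjusted p = 0.0262) without being called in either line, and it lost that call without T98G PEPD-OE replicate 2 or 3, T98G NC replicate 2 or 3, U251 PEPD-OE replicate 1, or U251 NC replicate 1 or 3, with adjusted p-values of 0.0512 to 0.103. The call of SRSF6 for the difference was lost without T98G PEPD-OE replicate 2, T98G NC replicate 3, U251 PEPD-OE replicate 3, or U251 NC replicate 2 or 3 (0.0559 to 0.154). SRSF8 lost it without T98G PEPD-OE replicate 3 (0.072) or T98G NC replicate 2 (0.118), SYNCRIP without T98G PEPD-OE replicate 3 (0.0536) or T98G NC replicate 3 (0.0554), and HNRNPD without T98G NC replicate 2 (0.0514).

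Between the NC cells of the lines, 19 of the 36 members differed, beside 48.7% of all genes tested, so the members' share was close to that of all genes. Of the SR genes, SRSF1, SRSF2 and SRSF10 were higher and SRSF4, SRSF11 and TRA2A lower in T98G NC than in U251 NC. Of the hnRNP genes, 11 were higher in T98G NC (HNRNPA1, HNRNPA3, HNRNPAB, HNRNPD, HNRNPH1, HNRNPH3, HNRNPK, HNRNPLL, HNRNPM, HNRNPR and PTBP3) and 2 were lower (HNRNPH2 and HNRNPU). Among all genes tested, 24.4% were higher and 24.3% lower. The T98G NC libraries lay above all U251 NC libraries for 16 members and below them for 6, beside 27.7% and 27.4% of all genes tested (55.1% in either direction). The largest differences were 1.28 (SE 0.40, edgeR adjusted p = 0.00515) for HNRNPLL, on 42 counts in T98G NC and 20 in U251 NC, and 1.18 (SE 0.09, edgeR adjusted p = 1.05e-24) for HNRNPA3. HNRNPU averaged 2065 ± 27.5 CPM in T98G NC and 3426 ± 136 CPM in U251 NC (SD, n = 3 each), a log2 fold change of -0.73 with an SE of 0.08 (edgeR adjusted p = 6.23e-16). SRSF1 averaged 131 ± 38.7 CPM in T98G NC and 76.3 ± 12.1 CPM in U251 NC (SD, n = 3 each), a log2 fold change of 0.73 with an SE of 0.17 (edgeR adjusted p = 0.000119). The SR calls were less stable: 6 were made with all libraries, 2 without T98G NC replicate 3 and 3 without U251 NC replicate 3. SRSF2 lost its call in 10 of the 12 fits that left out 1 library (adjusted p up to 0.372, without T98G NC replicate 2) and SRSF11 in 6 (up to 0.237, without U251 NC replicate 1). SRSF10 lost it without T98G NC replicate 3 or U251 NC replicate 2 or 3 (0.0607 to 0.0733), and TRA2A without T98G NC replicate 2 or 3 or U251 NC replicate 1 (0.0625 to 0.0835). Among the hnRNP genes HNRNPD lost it without T98G NC replicate 1 or 2 or U251 NC replicate 1 or 2 (0.0669 to 0.164), and PTBP3 without T98G NC replicate 2 or U251 NC replicate 2 or 3 (0.0519 to 0.189). HNRNPH2 lost it without T98G NC replicate 3 (0.155) or U251 NC replicate 2 (0.0671), and HNRNPK without T98G NC replicate 3 (0.077). This contrast shares its NC libraries with the PEPD-OE contrasts, so its values are not independent of theirs.

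**Figure D3:**
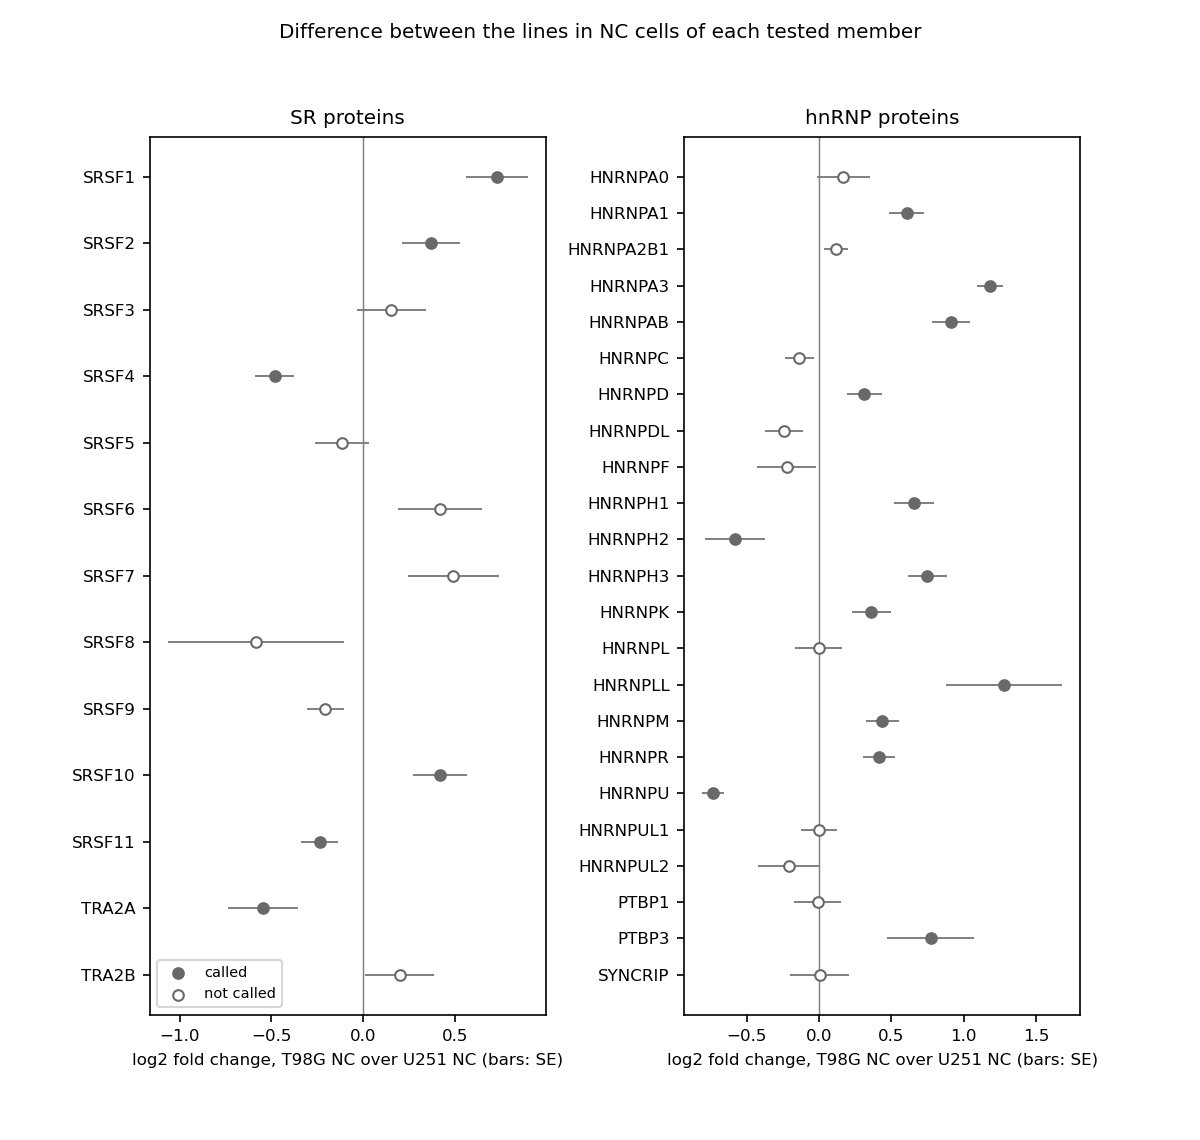
Log2 fold change of T98G NC over U251 NC (x axis, bars SE) for each tested member, SR proteins left and hnRNP proteins right, filled where called. HNRNPA3 (1.18) and HNRNPLL (1.28) lie farthest right and HNRNPU (-0.73) farthest left.

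Per length of exon, the members spanned a wide range. Over the 12 libraries HNRNPA3 had 1663 counts per kb, HNRNPA2B1 1618, SRSF9 1412 and HNRNPU 994. At the other end were SRSF8 with 20.1, PTBP2 with 6.72 and SRSF12 with 4.398 counts per kb. SRSF9, SRSF11 and SRSF4 were the SR genes with most counts per kb over all libraries, at 1412, 545 and 538. The order of SRSF11 and SRSF4 differed between the lines, with means of 54.7 CPM per kb for SRSF11 and 48.6 for SRSF4 in T98G NC, and 64.4 for SRSF11 and 67.3 for SRSF4 in U251 NC. In T98G NC the mean levels were 196 CPM per kb for HNRNPA2B1, 179.8 for HNRNPA3 and 135 for SRSF9, while in U251 NC they were 180.5 for HNRNPA2B1, 155 for SRSF9, 152 for HNRNPU and 79.2 for HNRNPA3. Exon lengths are the union of exons in GENCODE release 29, and the part of opposite-strand reads in this order was not tested.

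For 12 members an exon overlaps an exon on the other strand, and for these the partner with most counts was set beside the member. SRSF2 held 787 counts and MFSD11, a transporter-like gene over it on the plus strand, 4162. MFSD11 had 283, 287 and 288 CPM in T98G PEPD-OE and 726, 660.1 and 659.8 CPM in T98G NC, a log2 fold change of -1.25 with an SE of 0.11 (edgeR adjusted p = 5.99e-21), close to that of SRSF2 (-1.29). Both fell in T98G with no overlap between groups, and neither was called in U251. SRSF1 held 796 counts and the unnamed transcript AC015813.5 over it 4755. AC015813.5 had 617, 547 and 589.8 CPM in T98G PEPD-OE and 730.1, 651 and 639 CPM in T98G NC, a log2 fold change of -0.20 with an SE of 0.10 (edgeR adjusted p = 0.128) that was not called. All its PEPD-OE libraries were nonetheless below its NC libraries. Both partners were higher in T98G NC than in U251 NC, as SRSF1 and SRSF2 were. The log2 fold change was 0.65 (SE 0.10, edgeR adjusted p = 2.88e-08) for AC015813.5 and 0.59 (SE 0.10, edgeR adjusted p = 2.97e-07) for MFSD11. The T98G change minus the U251 change was -0.40 (SE 0.15, edgeR adjusted p = 0.0267) for AC015813.5 and -1.29 (SE 0.15, edgeR adjusted p = 4.14e-13) for MFSD11. The former was lost in 4 fits that left out 1 library.

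SRSF9 held 5288 counts and GATC, a subunit of the mitochondrial enzyme that amidates glutamyl-tRNA, 10048. GATC averaged 1089.9 ± 66.1 CPM in T98G PEPD-OE and 1066 ± 58.9 CPM in T98G NC (SD, n = 3 each), a log2 fold change of 0.03 with an SE of 0.09 (edgeR adjusted p = 0.815). The rise of SRSF9 in T98G thus had no called counterpart under GATC. HNRNPU held 22388 counts and COX20, an assembly factor of cytochrome c oxidase, 13203. COX20 had 2991, 2599 and 2442 CPM in T98G PEPD-OE and 1196, 1068 and 1123 CPM in T98G NC, a log2 fold change of 1.25 with an SE of 0.09 (edgeR adjusted p = 6.72e-27). It rose where HNRNPU fell. TGFB1, the growth factor gene that overlaps HNRNPUL1, rose in T98G by a log2 fold change of 0.74 with an SE of 0.19 (edgeR adjusted p = 0.000879). PHYKPL, which overlaps HNRNPAB, fell at a log2 fold change of -0.48 (edgeR adjusted p = 0.0319), although its libraries overlapped and the call was lost without T98G PEPD-OE replicate 1 or 3 or T98G NC replicate 1 or 3 (0.056 to 0.259). In U251 PHYKPL was not called (0.32, SE 0.17, edgeR adjusted p = 0.263). Its T98G change minus the U251 change was called (-0.80, SE 0.25, edgeR adjusted p = 0.00801), and lost in 1 fit that left out 1 library (0.07). In U251 COX20 was not called (-0.20, SE 0.09, edgeR adjusted p = 0.167). GATC was called lower there (-0.26, SE 0.09, edgeR adjusted p = 0.0481), a call lost in 9 fits that left out 1 library.

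HNRNPM, HNRNPD, HNRNPH3 and HNRNPA3 had partners with few counts, 49 for AC136469.2, 4 for HNRNPD-DT, 88 for RUFY2 and 7 for AC079305.3. The 7 counts of AC079305.3 were all in T98G PEPD-OE, where HNRNPA3 was highest. The 4 of HNRNPD-DT were all there too, in 1 library, where HNRNPD fell. AC136469.2 held 5 counts in T98G PEPD-OE and 13 in T98G NC, and RUFY2 19 in T98G PEPD-OE and 18 in T98G NC. These 4 partners were too low to be tested. CBX3, over HNRNPA2B1, held 812 counts, and HNRNPK-AS1, over HNRNPK, held 164, and neither was called in T98G (edgeR adjusted p = 0.54 for CBX3 and 0.255 for HNRNPK-AS1). HNRNPA3 lies 3636 bases from NFE2L2 on the other strand, which encodes the oxidative stress factor NRF2 and held 96310 counts. NFE2L2 was chosen after its values were seen. It had 14818, 14424 and 13458 CPM in T98G PEPD-OE and 16453, 15036 and 15688 CPM in T98G NC, a log2 fold change of -0.14 with an SE of 0.06 (edgeR adjusted p = 0.0603), while HNRNPA3 rose. Among the 24 tested members without overlap, 11 fell and 1 (SRSF11) rose in T98G, and among the 12 with overlap 9 fell and 2 rose. Of all 4115 genes tested without such overlap, 13.5% fell and 15% rose. Fitted alone, the genes without overlap gave 10 members that fell and 1 that rose.

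**Figure D4:**
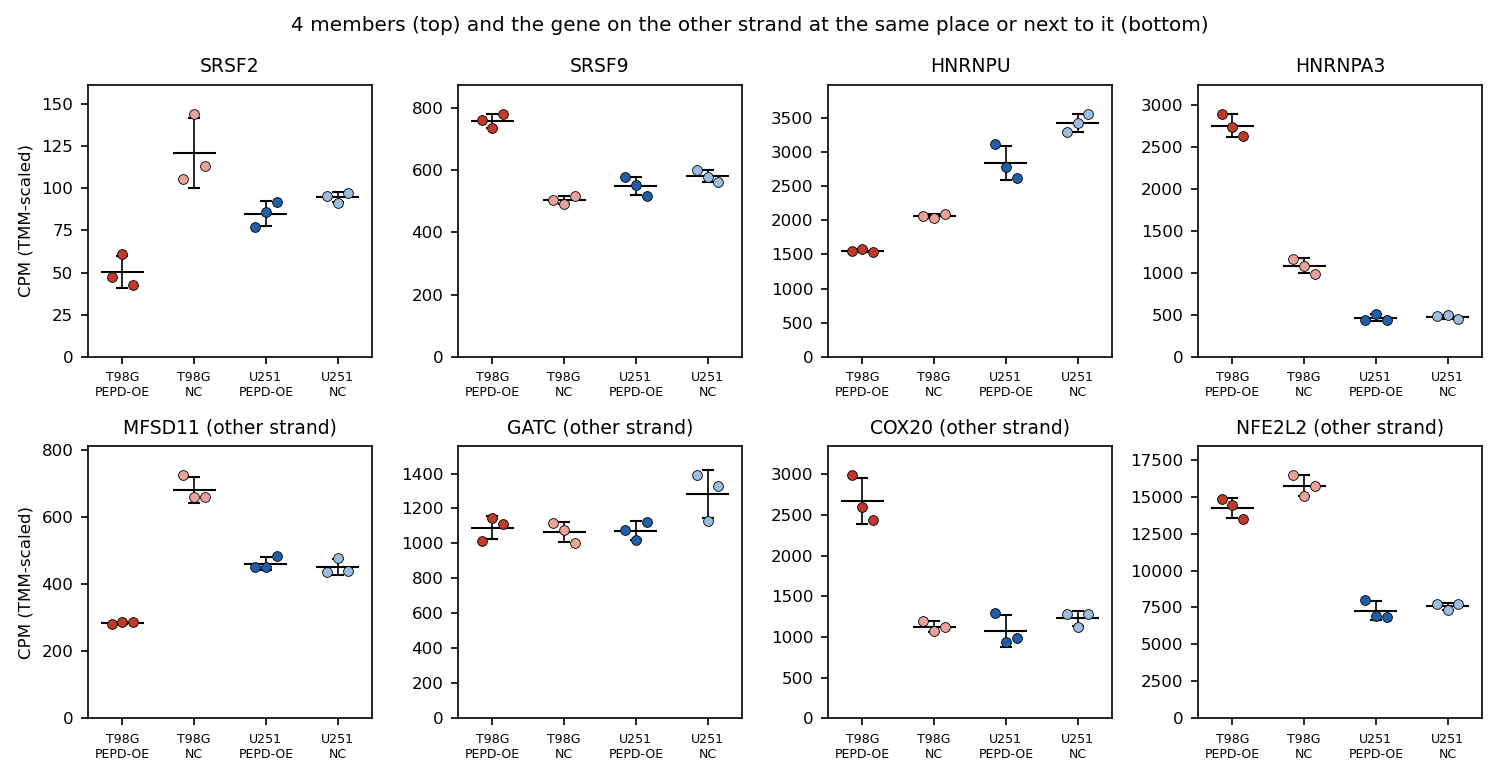
Level in CPM (y axis, from 0) in each library of SRSF2, SRSF9, HNRNPU and HNRNPA3 (top) and of the gene on the other strand that overlaps or neighbours each (bottom), with the mean as a line and the SD as a bar. MFSD11 falls with SRSF2 in T98G PEPD-OE, in T98G the GATC groups overlap while SRSF9 rises, COX20 rises while HNRNPU falls, and NFE2L2 is higher in T98G than in U251.

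Copies of the members elsewhere in the genome took few counts. The table lists 134 pseudogenes named after members, with 709 counts in all beside 100324 under the members. Of these, 501 fell under 74 pseudogenes of HNRNPA1, which itself held 2419 counts, 105 under 16 pseudogenes of HNRNPA3 and 78 under 9 of HNRNPC. How reads that match several copies were counted is not given in the sources used here, and HNRNPA1 had the largest such count relative to its own among these 3.

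Other parts of the splicing machinery were read from lists chosen with earlier results known. In T98G CLK4 and CLK3 rose among 9 tested kinases of SR proteins, and the other 7 were not called, a share higher (22.2%) near that of all genes (17.7%). CLK3 had 364, 382 and 370.4 CPM in T98G PEPD-OE and 281, 259 and 250.9 CPM in T98G NC, a log2 fold change of 0.50 with an SE of 0.12 (edgeR adjusted p = 0.000327). CLK4 was scarce, with 38 counts in T98G PEPD-OE and 16 in T98G NC, a log2 fold change of 1.24 with an SE of 0.46 (edgeR adjusted p = 0.0268), and it lost its call without T98G PEPD-OE replicate 2, T98G NC replicate 2 or T98G NC replicate 3 (adjusted p from 0.0832 to 0.197). Of 30 tested regulators of splicing from other families, 10 fell (33.3%, beside 14.7% of all genes) and 2 rose (6.67%, beside 17.7%), with a median log2 fold change of -0.19. SFPQ, a paraspeckle protein, had 105, 126 and 147 CPM in T98G PEPD-OE and 299.6, 344 and 292 CPM in T98G NC, a log2 fold change of -1.31 with an SE of 0.14 (edgeR adjusted p = 1.02e-14). Its groups did not overlap. RBM3, a cold-induced RNA-binding protein, fell by a log2 fold change of -1.004 with an SE of 0.27 (edgeR adjusted p = 0.00163). The C-run binder PCBP2 rose in T98G (0.61, SE 0.14, edgeR adjusted p = 0.000144) and fell in U251 (-0.64, SE 0.14, edgeR adjusted p = 0.000591), and this difference was called (1.25, SE 0.20, edgeR adjusted p = 5.89e-08).

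Among the core particles, some genes fell in T98G, beside 14.7% of all genes. The share was 27.8% for the U1 and U2 particles with U2AF and 25% for the tri-snRNP. It was near that of all genes for the Sm and LSm proteins and the exon junction complex (18.2% each), the PRP19 complex (15.4%), the carriers (14.3%) and nonsense-mediated decay (11.1%). Of 18 tested proteins of the U1 and U2 particles and U2AF, 5 fell, with SF3A3 at -1.16 (SE 0.22, edgeR adjusted p = 4.97e-06), SF3B4 at -1.11 (SE 0.30, edgeR adjusted p = 0.00184) and U2AF2 at -0.84 (SE 0.15, edgeR adjusted p = 1.35e-06) on the log2 scale. Of 12 proteins of the tri-snRNP, PRPF3, PRPF31 and DDX23 fell, with changes of -0.76, -0.68 and -0.50 on the log2 scale (edgeR adjusted p = 0.00503, 0.00176 and 0.0478), and the call of DDX23 was lost in 8 of the 12 fits that left out 1 library (up to 0.221, without T98G PEPD-OE replicate 3). Of 11 Sm and LSm ring proteins, SNRPB (-0.85, SE 0.15, edgeR adjusted p = 8.47e-07) and SNRPF (-0.81, SE 0.20, edgeR adjusted p = 0.000518) fell. Of 13 proteins of the PRP19 complex and later steps, PRPF19 (-1.04, SE 0.25, edgeR adjusted p = 0.000416) and BCAS2 fell, BCAS2 on 9 counts in T98G PEPD-OE and 32 in T98G NC (edgeR adjusted p = 0.00374). The exon junction complex had RBM8A (-0.93, SE 0.21, edgeR adjusted p = 0.00018) and ALYREF (-0.81, SE 0.29, edgeR adjusted p = 0.0213) lower and SRRM1 (0.42, SE 0.17, edgeR adjusted p = 0.0395) higher of 11. ALYREF lost its call without T98G PEPD-OE replicate 2 or 3 or T98G NC replicate 3 (adjusted p 0.102 to 0.263), and SRRM1 without T98G PEPD-OE replicate 1, 2 or 3 or T98G NC replicate 1 or 3 (0.0631 to 0.231). Of 9 factors of nonsense-mediated decay SMG5 fell (-0.94, SE 0.23, edgeR adjusted p = 0.000507), and of 7 carriers between nucleus and cytoplasm KPNB1, importin beta, fell (-0.44, SE 0.11, edgeR adjusted p = 0.000811).

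In U251 these 9 lists held 3 genes called higher and 1 (PCBP2) called lower, where 4.13% of all genes were called higher and 4.42% lower. SF3A1 of the U2 particle rose (0.65, SE 0.17, edgeR adjusted p = 0.00554), RNPS1 of the exon junction complex rose (0.55, SE 0.19, edgeR adjusted p = 0.0476), and SMG5 rose (0.63, SE 0.20, edgeR adjusted p = 0.0282). The call of RNPS1 was lost in 11 of the 12 fits that left out 1 library, all but that without U251 PEPD-OE replicate 1 (adjusted p up to 0.274). That of SMG5 was lost without U251 PEPD-OE replicate 2 or 3 or any 1 U251 NC library (0.0718 to 0.171), and that of SF3A1 without U251 PEPD-OE replicate 2 (0.0768). SMG5 was called in opposite directions in the lines, with a difference of -1.56 (SE 0.30, edgeR adjusted p = 1.1e-05).

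**Figure D5:**
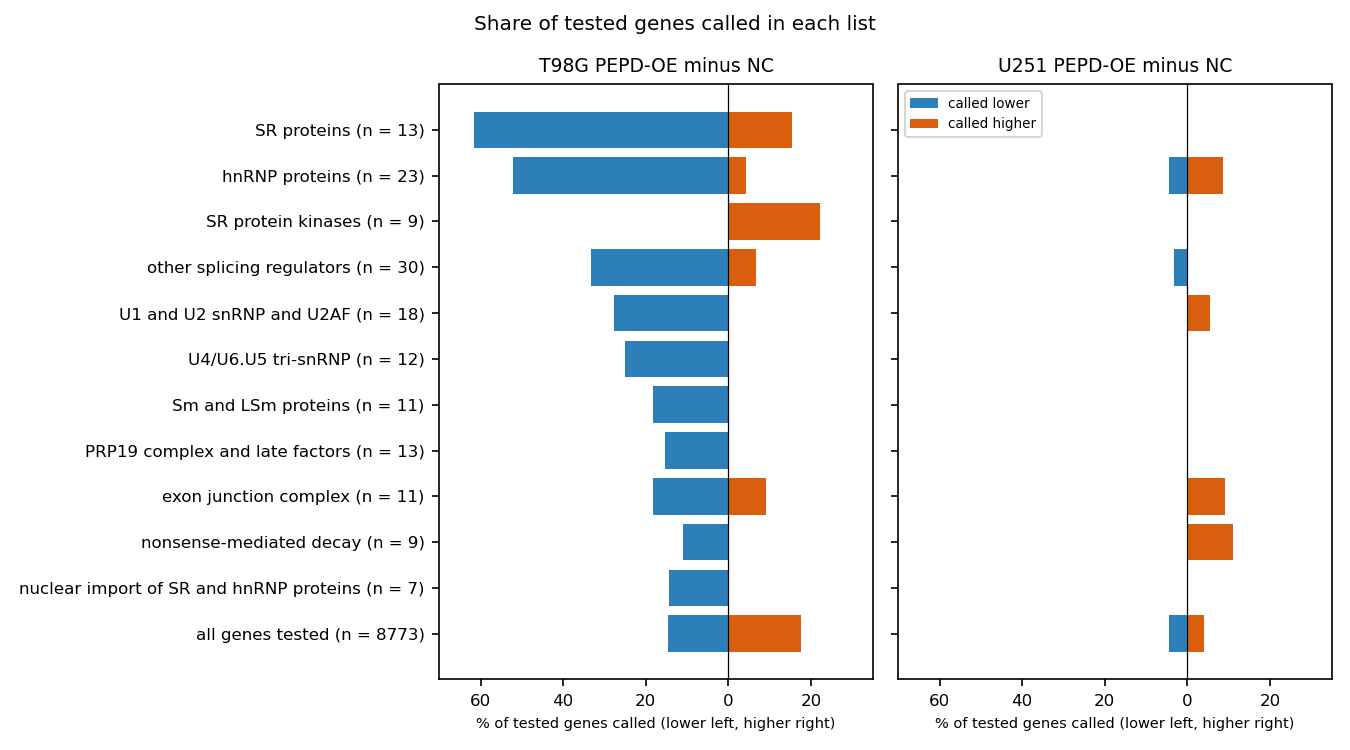
Percent of the tested genes of each list that were called lower (bars to the left) and higher (bars to the right) for PEPD-OE over NC in T98G (left panel) and U251 (right panel), with the number tested in parentheses and all genes tested at the bottom. In T98G the SR proteins (8 of 13) and hnRNP proteins (12 of 23) have the longest bars to the left.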

How the data were processed

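RNA-seq libraries of polyadenylated RNA from 4 groups of 3 were compared. The authors deposited 1 table of raw counts per gene. Per the submitters' processing notes, FastQC, fastp, HISAT2, featureCounts of Subread and GRCh38 were used, with no roles or versions given. All 12 count columns matched a sample's labels. Library totals were 464056 to 924204 counts, so 3 counts equal 3.20 to 6.33 CPM, and counting intervals cover counting error only.

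Counts were fitted with edgeR 4.0.16 (R 4.3.3, limma 3.58.1), robust quasi-likelihood, TMM scaling, a mean per group, 8 residual degrees of freedom, and filterByExpr with a minimum count of 10. Tests were two-sided, with Benjamini-Hochberg adjustment over 8773 genes and calls at adjusted p under 0.05. The fit moderates each gene's spread by that of all genes tested, so p-values rest on more than the 8 residual degrees of freedom. SE is the absolute log2 fold change divided by the root of F. An exact permutation test of 3 against 3 libraries cannot go below p = 0.1 and was not used. Exon overlaps and lengths came from GENCODE release 29, which holds 58228 of the table's IDs (92.1%).

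Members and lists were chosen with earlier results of these data known. Named genes were PEPD, all members, the opposite-strand partner with most counts of each overlapped member, and up to 3 called genes per list and PEPD-OE contrast with the largest change. A gene that this rule names is not reported here. Alternatives were DESeq2 1.42.0, other scalings and filters, a fit without opposite-strand overlaps, a test of changes beyond 0.5 on the log2 scale, each line alone, a replicate block and leaving out each library. No pair of libraries within a group was a duplicate. The tests were checked on simulated data.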

Additional observations from a re-analysis of the deposited data

Results flagged for a closer look

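The change with PEPD over-expression differed between T98G and U251, by the test of that difference in edgeR over all genes, for 20 members. The values are the T98G change minus the U251 change on the log2 scale. Among the SR genes they were -1.63 for SRSF1, -1.14 for SRSF2, -1.04 for SRSF3, -0.99 for SRSF6, -2.93 for SRSF8, -0.88 for SRSF10 and -1.02 for TRA2B, and 0.67 for SRSF9 and 0.52 for SRSF11. SRSF8 held 2 counts in T98G PEPD-OE, so its value depends on the prior count and is no bound. Among the hnRNP genes they were -0.80 for HNRNPA1, -0.78 for HNRNPA2B1, -1.29 for HNRNPAB, -0.55 for HNRNPD, -1.12 for HNRNPH1, -1.06 for HNRNPH3, -0.79 for HNRNPL, -1.68 for HNRNPM, -0.43 for HNRNPR and -0.96 for SYNCRIP, and 1.39 for HNRNPA3.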

How the results depend on the processing

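No member's change reversed where it was called. Calls made with all libraries were followed through every setting that tested the gene, other than the test against a log2 fold change of 0.5. Kept throughout were 16 of 23 in T98G and 1 of 3 in U251 (HNRNPAB). For the difference between lines 15 of 20 were kept, and between NC cells 11 of 19. Members with opposite-strand overlap, HNRNPAB among them, were absent from the fit without such overlap, so their calls did not face it. The stricter test against a log2 fold change of 0.5 called 8 members in T98G, 0 in U251, 10 for the difference and 5 between NC cells. Genes without opposite-strand overlap, fitted alone, gave 11, 0, 10 and 11 in that order, a count lowered by construction since 12 members were not tested. In U251, no filter on low counts called 1 and each line fitted alone called 1, against 3. Leaving out 1 library gave 18 to 23 members in T98G, 1 to 3 in U251, 17 to 22 for the difference and 13 to 20 between NC cells. In U251 1 was left without U251 PEPD-OE replicate 2 or U251 NC replicate 3. DESeq2 called 20 in T98G and 2 in U251 (1 higher, 1 lower). Among all genes called in U251, 48.3% were higher in edgeR and 36.9% in DESeq2. Replicate numbers did not pair the libraries (0 of 18 same-number pairs with r over 0.1), and a replicate block called 23, 3, 20 and 18 members. Depth limits SRSF8, SRSF12, PTBP2 and HNRNPLL most.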
